A study of Mus musculus with 10 samples.

Results

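Imprinted genes are expressed from 1 parental copy only, in most cases because the egg and the sperm pass on different DNA methylation at a control region of the domain. They lie in groups along the chromosomes, and within a group noncoding RNAs and protein genes are often read from opposite parental copies. Many of them set the growth of the fetus, the placenta and the newborn, and several fall to low levels in adult tissue. EZH2 is the catalytic subunit of PRC2, the complex that places the repressive mark H3K27me3, and in mouse embryos and placenta PRC2 helps to keep the silent copy of some imprinted genes off. The question here was which members of a list of 39 known imprinted mouse genes differed between mammary tumours with and without Ezh2. Each member was read from the probe set annotated to its symbol alone, and where there was more than 1, from the one with the highest mean over all 10 arrays. This gave a value for 34 of the 39 genes, out of 22180 genes measured in all. H19, Rtl1, Mirg and Snrpn had probe sets shared with other genes only, which are described apart, and Slc22a3, an organic cation transporter gene, was not analysed here.

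The tumours arose in Tet-ON PyVmT female mice of the FVB strain. In all of them the MMTV promoter drives the transactivator rtTA, and doxycycline given to adult females then switches on a Tet operator transgene that encodes the polyomavirus middle T oncogene and Cre recombinase together. In the 5 Ezh2-/- tumours Cre deleted both conditional copies of Ezh2 in the mammary epithelium, whereas the 5 Ezh2+/+ tumours carried the same transgenes and kept the gene. The paper reports that tumours appeared later in Ezh2-/- mice, and tumours were taken at an endpoint of tumour burden. The sample labels give neither mouse age nor time on doxycycline, so their effects cannot be told apart from that of genotype. Whole tumours were frozen at endpoint, so that the stroma, vessels and immune cells, which the Cre transgene does not target, are in the RNA too, and the arrays do not tell the parental copies apart.

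All values are log2 signals on Affymetrix Mouse Gene 2.0 ST arrays, 1 array per tumour, as normalized by the authors. Arrays of the same genotype correlated at 0.965 to 0.982 and arrays of different genotypes at 0.930 to 0.962, and no pair of arrays was identical. The Ezh2 signal was between 6.36 and 6.50 in Ezh2-/- tumours, below the 6.98 to 7.69 of all Ezh2+/+ tumours. Genotypes were compared with limma, a linear model with moderated variances, and a gene was called higher or lower where the Benjamini-Hochberg adjusted p, taken over the whole set of genes, was under 0.05. SE is the standard error of a log2 fold change. These p-values measure the spread between tumours, which the labels name as biological replicates without saying whether each came from its own mouse. Precision is limited by there being 5 arrays of each genotype. The median signal of an array was lower in Ezh2-/- tumours (4.35 to 4.46) than in the Ezh2+/+ group (4.54 to 4.67), and dim genes were lower more often than bright ones. Of the dimmest 40% of genes, 12.7% were called lower and 1.49% higher, against 4.1% lower and 11.2% higher among the other genes.

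Of the 34 imprinted genes, 6 were higher in Ezh2-/- tumours, 3 were lower and 25 did not pass, with 15 under an unadjusted p of 0.05. The share of all genes under an unadjusted p of 0.05 was not computed, here or below. The genes that rose were Sgce, Rian, Grb10, Ndn, Plagl1 and Dio3, and the genes that fell were Calcr, Magel2 and Rasgrf1. The share called was 26.5% of the members, against 14.8% of all genes, with 17.6% higher, against 7.29%, and 8.82% lower, against 7.56%. The genotypes did not overlap for 7 members, which is 20.6% of them, against 11.7% of all genes. The median log2 fold change was 0.11 over the members and 0.03 over all genes, and single members ranged from −0.47 to 1.5. All 3 members that fell were among the 11 members in the dimmest 40% of genes, and Dio3 was the only dim member that rose. Of the 23 brighter members, 5 rose and none fell. The split depended on the scaling of the arrays. It was 5 higher and 0 lower after quantile normalization and, in a setting chosen after seeing the data, after cyclic loess. After median centring, which moved the median of all genes to 0.20, it was 11 higher and 0 lower, with Gnas, Impact, Nnat, Peg13 and Ppp1r9a added. Over all genes, 6.03% were higher and 3.98% lower after quantile normalization and 4.93% and 4.49% after cyclic loess. Median centring called 23.5% of all genes higher and 4.18% lower. By the parental copy assigned as active from general knowledge, 4 of 19 paternally expressed genes rose and 2 fell. Of 12 assigned as maternally expressed, 1 rose and 1 fell. Of 3 assigned as varying by tissue or transcript, Grb10 rose. The assignments were not made for mammary tissue, and the active copy in these tumours was not measured.

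**Figure D1:**
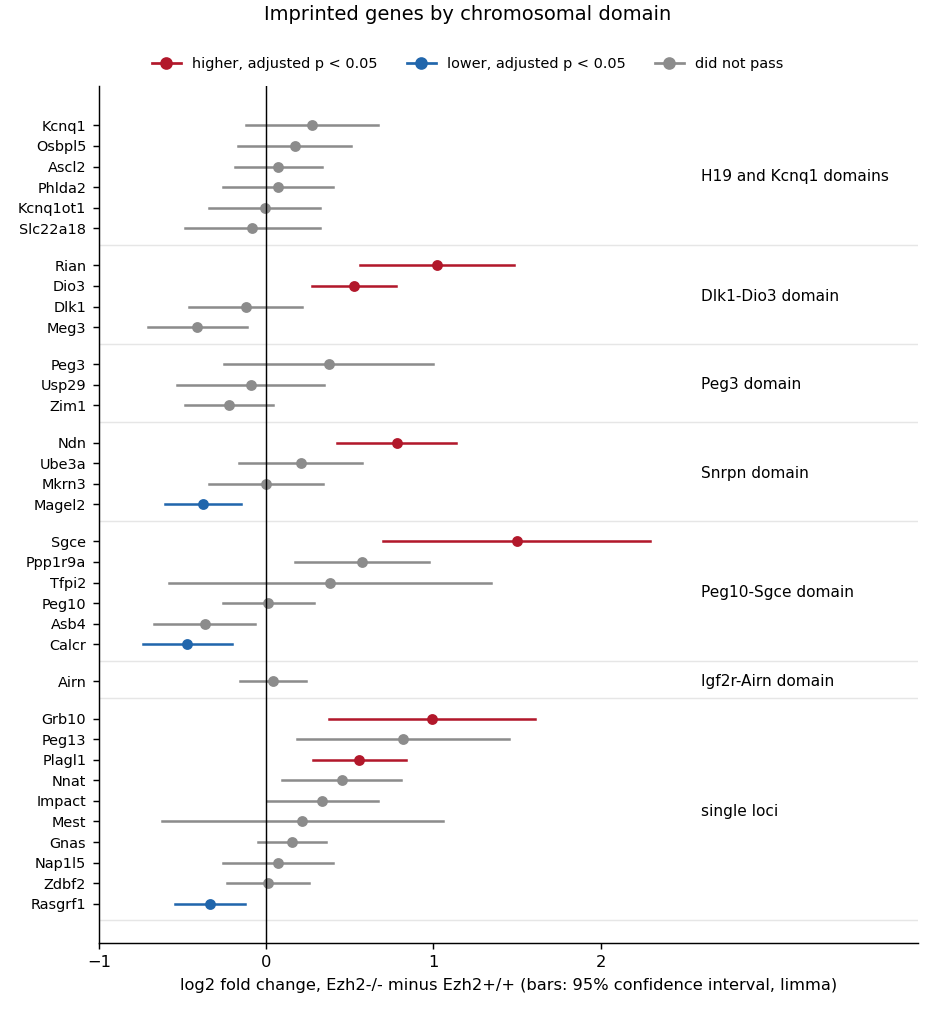
Log2 fold change of each of the 34 imprinted genes (x axis, Ezh2-/- minus Ezh2+/+, with bars for the 95% confidence interval from limma), grouped by chromosomal domain. Red genes were higher, blue genes lower and grey genes did not pass, and values run from −0.47 for Calcr to 1.5 for Sgce, with domains that hold both directions. The 3 blue genes did not pass after quantile normalization, median centring or cyclic loess, and among the grey genes Kcnq1ot1, Slc22a18, Dlk1, Usp29, Mkrn3 and Peg10 changed sign under at least 1 of these scalings.

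**Figure D2:**
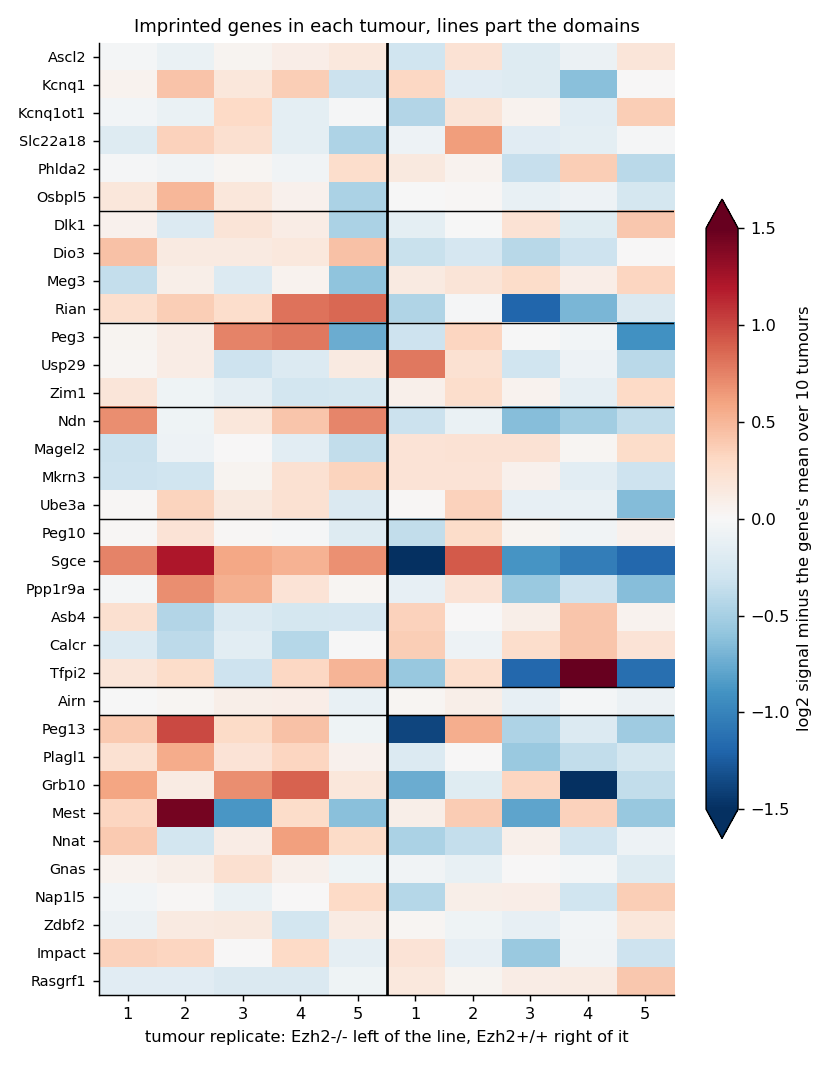
Signal of every imprinted gene in every tumour, as the log2 signal minus that gene's mean over the 10 tumours (colour scale, ends at −1.5 and 1.5), with Ezh2-/- replicates on the left and Ezh2+/+ replicates on the right of the line. Sgce and Peg13 are blue in 4 of 5 Ezh2+/+ tumours and red in Ezh2+/+ replicate 2, and Rian, Ndn, Plagl1 and Dio3 hold their higher values in the Ezh2-/- tumours.

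Markers of stromal cells differed between the genotypes as well. Fibroblast markers were higher for 11 of 16 genes, with a median log2 fold change of 1.33, and their mean signal spanned 7.11 to 8.17 with Ezh2 deleted, against 5.76 to 6.82 in Ezh2+/+ tumours. Of 14 endothelial markers 7 were higher (mean signal 5.93 to 6.46 against 5.50 to 5.91), and of 11 macrophage markers 4 were higher (7.64 to 8.37 against 7.15 to 7.81). Of all genes, 7.29% were higher. No marker of adipocytes (9 genes, 4.96 to 7.27 against 4.97 to 5.76) or skeletal muscle (16 genes, 4.67 to 8.01 against 4.59 to 5.15) passed, and muscle markers were high in Ezh2-/- replicates 1 and 5 only, at 8.01 and 6.94. By limma 4 adipocyte and 4 muscle markers had an unadjusted p under 0.05, and the methods' own test with adjustment called 0 of each. Adipocyte calls numbered 3 higher without Ezh2-/- replicate 2, 4 without replicate 3, 4 after median centring, 4 with the replicate number as a block and 3 at the methods' thresholds, and muscle calls 1 higher without Ezh2-/- replicate 3, after quantile normalization or at the methods' thresholds, 2 higher after median centring and 1 lower without Ezh2-/- replicates 1 and 5. The counts higher of the other stromal lists moved as well. Endothelial calls fell to 4, 3 and 4 without Ezh2-/- replicate 1, Ezh2-/- replicate 4 or Ezh2+/+ replicate 5, and macrophage calls to 2 without Ezh2-/- replicate 4 and 1 without Ezh2-/- replicates 1 and 5. The methods' own test with adjustment called 7 fibroblast, 2 endothelial and 1 macrophage markers higher, and median centring 15, 12 and 9. These 2 settings called 3.89% and 23.5% of all genes higher. Mammary epithelial markers were close in level, at 8.68 to 9.11 and 8.66 to 8.97, with 1 of 13 genes higher (0 to 2 without single tumours), and of 12 neural markers, at 4.42 to 4.60 and 4.60 to 4.79, only 1 was called, and it was lower. In RNA of whole tumours, more cells of a type and more RNA per cell cannot be told apart. The part of these cells in the differences of imprinted genes was not tested. Without Ezh2-/- replicates 1 and 5, 6 members were higher and 3 lower, with 5 and 2 of the calls above among them. Of all genes, 10.6% were higher and 7.07% lower in that fit. Grb10 and Magel2 then lost their calls, at adjusted p = 0.0556 and 0.109, and Ppp1r9a and Asb4 gained one.

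**Figure D3:**
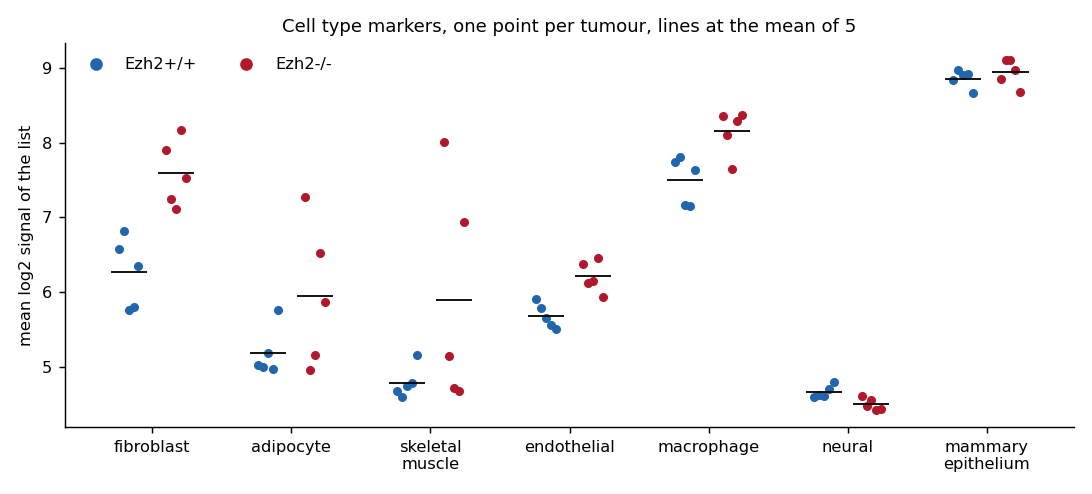
Mean log2 signal of each list of cell type markers (y axis) in each tumour, 1 point per tumour, with a line at the mean of the 5 tumours of a genotype. All Ezh2-/- tumours lie above all Ezh2+/+ tumours for fibroblast and endothelial markers, whereas the mammary epithelial points of both genotypes share the range from 8.66 to 9.11.

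**Figure D4:**
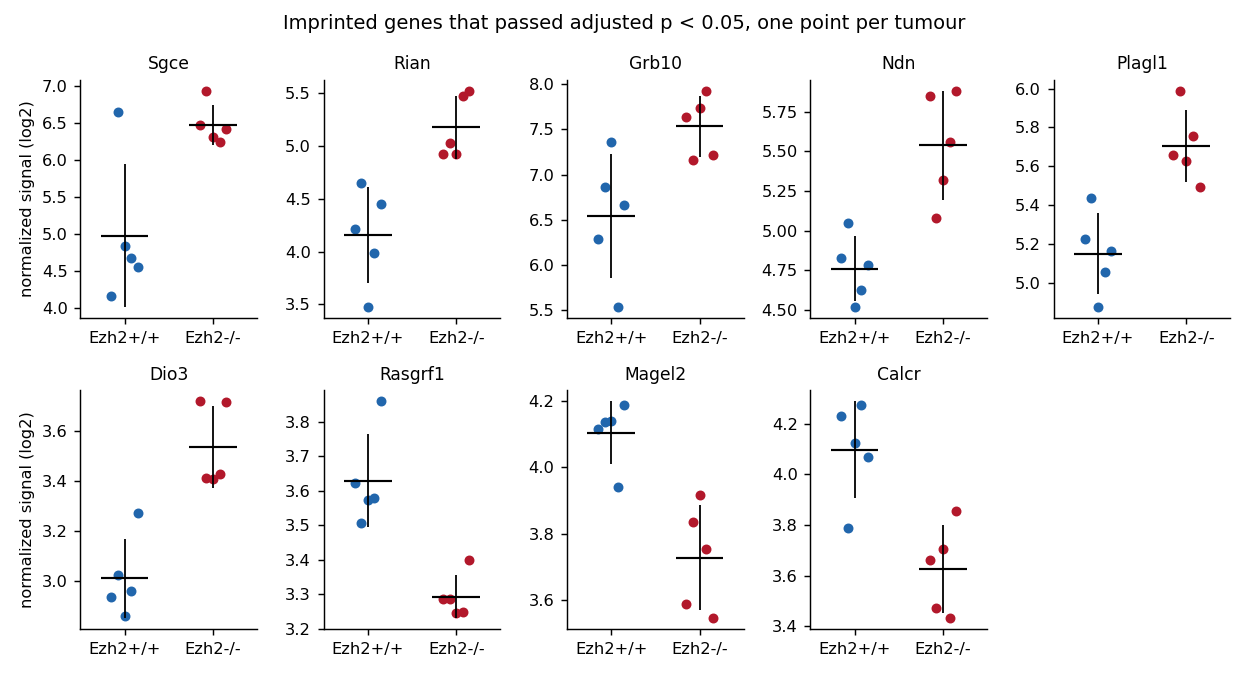
Log2 signal of the 9 imprinted genes that passed an adjusted p under 0.05 (y axis, a scale for each gene that does not start at 0), 1 point per tumour, with the mean as a horizontal line and 1 SD as a vertical bar (n = 5). The genotypes do not overlap for Rian, Ndn, Plagl1, Dio3, Rasgrf1 and Magel2, while 1 Ezh2+/+ tumour for Sgce, at 6.65, lies among the Ezh2-/- tumours. The falls of Rasgrf1, Magel2 and Calcr did not pass after quantile normalization, median centring or cyclic loess.

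The Dlk1-Dio3 domain carries protein genes that are read from the paternal copy and a row of noncoding RNAs that are read from the maternal copy. Of its 4 measured genes 2 rose, 1 of each kind, where 7.29% of all genes were higher. Rian is a long noncoding RNA that hosts small nucleolar RNAs. Its log2 signal was 4.92, 5.03, 4.92, 5.48 and 5.53 in Ezh2-/- replicates 1 to 5 and 4.21, 4.64, 3.47, 3.98 and 4.45 in Ezh2+/+ replicates 1 to 5. Every Ezh2-/- tumour was above every Ezh2+/+ tumour. The means were 5.18 ± 0.30 (SD, n = 5) and 4.15 ± 0.46 (SD, n = 5), a log2 fold change of 1.02 (SE 0.21, limma adjusted p = 0.00986) or 2.03-fold. The call was kept in all 10 fits that left out 1 tumour and in the 12 other settings.

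Dio3 encodes the deiodinase that inactivates thyroid hormone and lies at the far end of the domain. It gave 3.72, 3.41, 3.41, 3.43 and 3.71 in Ezh2-/- tumours and 2.93, 3.02, 2.86, 2.96 and 3.27 in Ezh2+/+ tumours, again without overlap, though all 10 values are dim. The log2 fold change was 0.53 (SE 0.12, limma adjusted p = 0.0126), and it kept its call without any single tumour. Dlk1, a membrane protein that holds back fat cell differentiation, did not pass, with 4.35 to 5.01 in Ezh2-/- and 4.64 to 5.23 in Ezh2+/+ tumours and a log2 fold change of −0.12 (SE 0.15) that turned positive after quantile normalization and median centring.

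The probe sets of the noncoding RNAs in this domain went in different directions. Which transcript each of them reads was not tested. Meg3, a noncoding RNA with growth-restraining activity in tumour cells, had 3 probe sets. The one annotated to Meg3 alone was at 4.01, 4.47, 4.17, 4.43 and 3.77 in Ezh2-/- and 4.51, 4.57, 4.65, 4.47 and 4.70 in Ezh2+/+ tumours, with all Ezh2-/- values below all others but a log2 fold change of −0.41 (SE 0.14) that did not pass (limma adjusted p = 0.0600, and 0.0485 without Ezh2-/- replicate 2). The probe set annotated to Meg3 and the microRNA gene Mir770 was higher instead, at 5.17 to 5.81 against 4.91 to 5.18, with a log2 fold change of 0.53 (SE 0.13, limma adjusted p = 0.0138 over 25341 annotated probe sets). Its call was kept in all 10 fits without a tumour and in the 8 other settings run on it. The remaining Meg3 probe set, which also names Mir1906-1 and Mir1906-2, was higher by 0.59 (limma adjusted p = 0.0476), but kept its call without single tumours in 2 of 10 fits. For Rian, a second probe set annotated to DQ267100 as well was lower, at 3.87 to 4.58 against 4.55 to 4.88, with a log2 fold change of −0.48 (limma adjusted p = 0.0306). This call was lost under every scaling tried (quantile normalization 0.160, median centring 0.122 and cyclic loess 0.142 as adjusted p) and was kept without single tumours in 4 of 10 fits. Mirg, the host of many microRNAs, was on 3 shared probe sets with log2 fold changes of −0.07, −0.03 and −0.14. Rtl1, a retrotransposon-derived gene of the placenta, was on 6 from −0.29 to 0.31. By limma 0 of these 9 passed, with 1 under an unadjusted p of 0.05, and 0 passed by the methods' own test with adjustment.

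In the H19 and Kcnq1 domains, which regulate fetal and placental growth, 0 of the 6 measured genes passed by limma, 0 had an unadjusted p under 0.05 and 0 passed by the methods' own test with adjustment. The largest difference among the probe sets that name a member of these domains was on one that is not a member value because its annotation names both H19, a maternally expressed noncoding RNA that is abundant before birth, and Mir675, the microRNA that lies within it. It read 7.25, 7.18, 7.03, 7.37 and 7.14 in Ezh2-/- replicates 1 to 5 and 4.34, 5.88, 4.67, 6.38 and 5.30 in Ezh2+/+ replicates 1 to 5. All Ezh2-/- tumours were above all Ezh2+/+ tumours and stayed within a narrow range, whereas the Ezh2+/+ tumours were spread widely. The means were 7.19 ± 0.13 (SD, n = 5) and 5.31 ± 0.84 (SD, n = 5), with a log2 fold change of 1.88 (SE 0.31, limma adjusted p = 0.00200), or 3.68-fold, and the call was kept without any single tumour and in all 8 other settings run on it. Over all annotated probe sets, 7.38% were higher and 9.45% lower. Of the 18 shared probe sets that name a member, 3 were higher, 3 lower and 12 did not pass. Igf2, the growth factor gene that shares its control region with H19, had a mean of 4.56 in both genotypes (SD 0.15 with the deletion and 0.16 without, n = 5 each), a log2 fold change of 0.00 (SE 0.11, limma adjusted p = 0.999). That level is near the array medians (4.35 to 4.67), and whether Igf2 was detected at all was not tested.

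**Figure D5:**
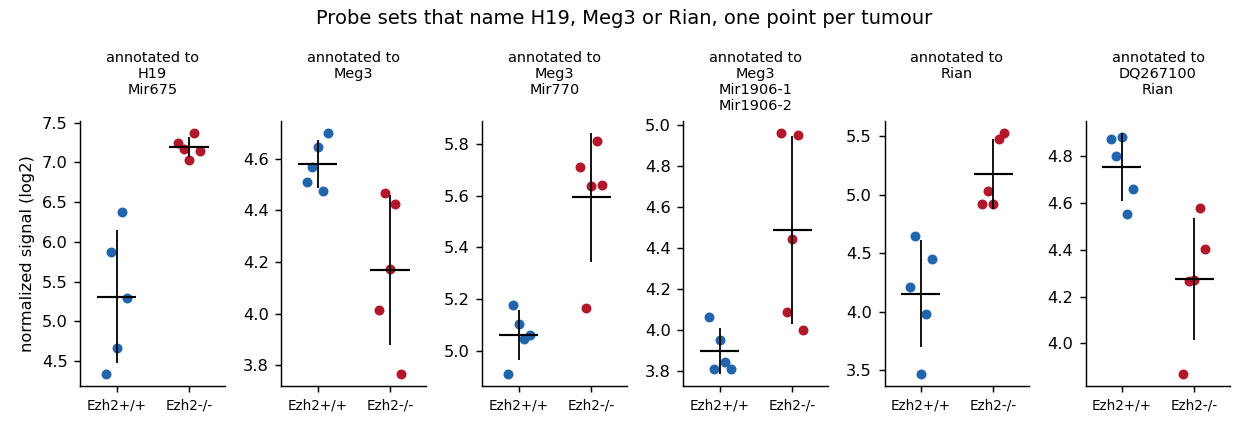
Log2 signal (y axis, a scale for each panel that does not start at 0) of the probe sets that name H19, Meg3 or Rian, 1 point per tumour, with the mean as a horizontal line and 1 SD as a vertical bar (n = 5). The H19 probe set separates the genotypes at 7.03 to 7.37 against 4.34 to 6.38, and the probe sets of Meg3 and of Rian disagree with each other in direction. Only the probe sets annotated to Meg3 alone and Rian alone are member values.

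The largest difference among the 6 measured genes of this region was that of Kcnq1, a potassium channel gene. Its signal was 5.26, 5.63, 5.37, 5.57 and 4.89 in Ezh2-/- tumours and 5.52, 5.03, 5.02, 4.58 and 5.21 in Ezh2+/+ tumours, which overlap, with a log2 fold change of 0.27 (SE 0.18, 95% confidence interval −0.12 to 0.67). Kcnq1ot1, the noncoding RNA that silences neighbouring genes on the paternal copy, ranged from 4.61 to 5.06 and from 4.32 to 5.13, and its difference of −0.01 had no stable sign across scalings. Among the other members that Kcnq1ot1 silences, Ascl2, a transcription factor gene of the placenta, was at 0.07. Phlda2, which restrains placental growth, was at 0.07 and the transporter gene Slc22a18 at −0.08 (0.09 after median centring). Osbpl5, a sterol transfer gene, was at 0.17. The 95% confidence intervals of these members lay between −0.49 and 0.51.

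The Peg10-Sgce domain held the largest difference of any member. Sgce, which is read from the paternal copy and encodes epsilon-sarcoglycan, a membrane protein linked to the cytoskeleton, gave 6.47, 6.94, 6.31, 6.25 and 6.42 in Ezh2-/- replicates 1 to 5 and 4.17, 6.65, 4.84, 4.69 and 4.56 in Ezh2+/+ replicates 1 to 5. In 4 Ezh2+/+ tumours the signal was below that of every Ezh2-/- tumour, and Ezh2+/+ replicate 2 was above 4 of the 5 Ezh2-/- tumours. The means were 6.48 ± 0.27 (SD, n = 5) and 4.98 ± 0.97 (SD, n = 5), a log2 fold change of 1.5 (SE 0.37, limma adjusted p = 0.0200), or 2.82-fold. Without Ezh2+/+ replicate 2 it was 1.92 (adjusted p = 0.000123), and the call was lost without Ezh2-/- replicate 2 or Ezh2+/+ replicate 5, at adjusted p = 0.0517 and 0.0520. Peg10, a retrotransposon-derived gene that starts beside Sgce and is read from the same parental copy, lay at 5.86 to 6.26 in Ezh2-/- and 5.69 to 6.33 in Ezh2+/+ tumours. Its log2 fold change was 0.01 (SE 0.13, 95% confidence interval −0.26 to 0.29) and turned negative after quantile normalization and cyclic loess.

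Among the maternally expressed genes of this domain, Calcr, the calcitonin receptor gene, fell. Its signal was 3.66, 3.47, 3.71, 3.43 and 3.86 in Ezh2-/- and 4.23, 3.79, 4.12, 4.27 and 4.07 in Ezh2+/+ tumours, with 4 of 5 Ezh2-/- tumours below all Ezh2+/+ tumours. The log2 fold change was −0.47 (SE 0.12, limma adjusted p = 0.0257). The call was lost after quantile normalization (adjusted p = 0.144) and without Ezh2-/- replicate 2 or 4 or Ezh2+/+ replicate 3 or 4 (adjusted p from 0.0508 to 0.0683). Ppp1r9a, which encodes the actin-binding protein neurabin, lay at 5.38 to 6.11 against 4.78 to 5.62, a log2 fold change of 0.57 (SE 0.18, limma adjusted p = 0.0549) that passed without Ezh2-/- replicate 5 (0.0412) or Ezh2+/+ replicate 2 (0.0248). Asb4, an ankyrin repeat gene, was at 2.84 to 3.53 against 3.28 to 3.70, with −0.37 (adjusted p = 0.0889, and 0.0354 without Ezh2-/- replicate 1). Tfpi2, a protease inhibitor gene, had a log2 fold change of 0.38 with a wide confidence interval, −0.58 to 1.35, and Ezh2+/+ tumours ranged from 5.23 to 8.07.

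In the Snrpn domain, whose loss in humans underlies Prader-Willi syndrome, neighbouring genes differed in opposite directions. Ndn encodes necdin, a growth-suppressing protein of the MAGE family, and is read from the paternal copy. Its signal was 5.85, 5.08, 5.32, 5.56 and 5.88 in Ezh2-/- and 4.82, 5.05, 4.52, 4.62 and 4.78 in Ezh2+/+ tumours. All Ezh2-/- tumours were above all Ezh2+/+ tumours, with the gap between Ezh2-/- replicate 2 and Ezh2+/+ replicate 2 the narrowest. The means were 5.54 ± 0.34 (SD, n = 5) and 4.76 ± 0.20 (SD, n = 5), a log2 fold change of 0.78 (SE 0.16, limma adjusted p = 0.0107), and the call was kept in all 10 fits without a tumour and in the 12 other settings.

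Magel2, a MAGE family gene next to Ndn that is also read from the paternal copy, was at 3.59, 3.83, 3.92, 3.75 and 3.55 in Ezh2-/- and 4.12, 4.14, 4.14, 3.94 and 4.19 in Ezh2+/+ tumours. No values overlapped, and Ezh2+/+ replicate 4 came closest to the Ezh2-/- tumours. The log2 fold change was −0.38 (SE 0.10, limma adjusted p = 0.0330). After quantile normalization it was −0.18 and no longer passed (adjusted p = 0.280), and the call was lost without Ezh2-/- replicate 1 or 4 or Ezh2+/+ replicate 1, 2, 3 or 5 (adjusted p from 0.0503 to 0.0750). The windows of 300 bases around the starts of Ndn and Magel2 are shown because these genes share a domain and an active copy and differed in direction. They are RefSeq promoter windows on GRCm38.p6, from 250 bases before to 50 after the start, Ndn at chr7:62348027-62348326 and Magel2 at chr7:62376729-62377028, both on the plus strand, with CpG dinucleotides, the sites of DNA methylation, in capitals.
Ndn: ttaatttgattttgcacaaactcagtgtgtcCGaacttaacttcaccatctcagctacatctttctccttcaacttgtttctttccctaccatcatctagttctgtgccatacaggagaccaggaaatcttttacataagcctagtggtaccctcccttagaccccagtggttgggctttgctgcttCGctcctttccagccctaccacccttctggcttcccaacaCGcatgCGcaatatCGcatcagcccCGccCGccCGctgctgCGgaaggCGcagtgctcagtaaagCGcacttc
Magel2: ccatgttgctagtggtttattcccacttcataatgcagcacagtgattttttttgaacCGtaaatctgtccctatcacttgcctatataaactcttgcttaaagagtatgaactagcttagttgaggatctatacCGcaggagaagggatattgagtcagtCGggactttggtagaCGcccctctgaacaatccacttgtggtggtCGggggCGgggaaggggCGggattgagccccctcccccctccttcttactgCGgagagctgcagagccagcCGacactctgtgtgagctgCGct
The Ndn window holds 11 CpG dinucleotides, most of them near the start, and the Magel2 window holds 10.

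Mkrn3, a ubiquitin ligase gene that restrains the onset of puberty, lay at 3.79 to 4.43 and 3.79 to 4.31, a log2 fold change of 0.00 (SE 0.16) that was 0.18 after quantile normalization. Ube3a, the ubiquitin ligase gene of Angelman syndrome, which is imprinted in neurons, had a log2 fold change of 0.21 (SE 0.17, 95% confidence interval −0.16 to 0.58). A second, dimmer probe set of Ube3a went the other way, at 2.86 to 3.12 against 3.11 to 3.17, with −0.17, and did not pass. Snrpn, a splicing protein gene, was on 2 probe sets shared with Snurf. One was lower, at 4.24 to 4.99 against 4.87 to 5.36, with −0.47 (limma adjusted p = 0.0474 over all annotated probe sets), kept in 2 of 10 fits without a tumour and lost after quantile normalization (0.144). The other, at 6.70 to 7.05 against 6.58 to 7.21, had −0.14 and did not pass.

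Of the 3 measured genes of the Peg3 domain 0 passed by limma, with 0 under an unadjusted p of 0.05, and 0 by the methods' own test with adjustment. Peg3, a zinc finger gene read from the paternal copy that affects growth and maternal care in mice, was at 7.63, 7.70, 8.33, 8.38 and 6.85 in Ezh2-/- and 7.28, 7.92, 7.58, 7.55 and 6.69 in Ezh2+/+ tumours. Replicate 5 was the lowest of both genotypes and the groups overlapped, with a log2 fold change of 0.37 (SE 0.29, 95% confidence interval −0.25 to 1.00). Usp29, a ubiquitin peptidase gene that starts next to Peg3 on the opposite strand, so that their promoter windows share 263 bases, had −0.09 (SE 0.20), positive after quantile normalization, median centring and cyclic loess. A probe set annotated to Usp29 and Zim3 was lower by a log2 fold change of −0.53 (limma adjusted p = 0.0372), a call kept in 3 of 10 fits without a tumour and lost after quantile normalization (0.106). Zim1, a maternally expressed zinc finger gene, was at 3.53 to 3.98 against 3.67 to 4.10, with −0.22 (SE 0.12). In the Igf2r-Airn domain the only member with a value was Airn, the paternal noncoding RNA that silences Igf2r. It gave 4.90, 4.94, 5.00, 5.01 and 4.79 in Ezh2-/- and 4.94, 4.99, 4.79, 4.88 and 4.82 in Ezh2+/+ tumours, which overlap. Its log2 fold change was 0.04 (SE 0.09, 95% confidence interval −0.16 to 0.24). Igf2r itself, the receptor gene that clears IGF2, had 0.49 (SE 0.30, limma adjusted p = 0.278).

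Of the 10 members outside these domains, 2 rose and 1 fell, where 7.29% of all genes were higher and 7.56% lower. Grb10 encodes an adaptor protein that dampens insulin and IGF receptor signalling and is read from the maternal copy in most tissues. It gave 7.64, 7.16, 7.74, 7.93 and 7.21 in Ezh2-/- replicates 1 to 5 and 6.29, 6.86, 7.36, 5.53 and 6.67 in Ezh2+/+ replicates 1 to 5. Ezh2+/+ replicate 3 was within the range of the Ezh2-/- tumours and replicate 4 was far below it. The means were 7.54 ± 0.34 (SD, n = 5) and 6.54 ± 0.68 (SD, n = 5), a log2 fold change of 0.99 (SE 0.28, limma adjusted p = 0.0364), or 1.99-fold. The call was kept in 4 of 10 fits without a tumour and lost without Ezh2-/- replicate 1, 3 or 4 or Ezh2+/+ replicate 1, 4 or 5 (adjusted p from 0.0525 to 0.0887), as well as after quantile normalization (0.0763) and cyclic loess (0.0924).

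Plagl1 encodes a zinc finger protein that can arrest the cell cycle and is read from the paternal copy. Its signal was 5.66, 5.99, 5.63, 5.76 and 5.49 in Ezh2-/- and 5.22, 5.43, 4.87, 5.05 and 5.16 in Ezh2+/+ tumours, without overlap. The log2 fold change was 0.56 (SE 0.13, limma adjusted p = 0.0158), or 1.47-fold, and it was kept without any single tumour. A second, dimmer probe set of Plagl1, at 2.50 to 3.06 against 2.09 to 3.43, had 0.18 and did not pass, and the mean of both had 0.37 (adjusted p = 0.0865). The gene that fell was Rasgrf1, a RAS exchange factor of the nervous system that is read from the paternal copy. It was at 3.29, 3.29, 3.25, 3.25 and 3.40 in Ezh2-/- and 3.62, 3.51, 3.57, 3.58 and 3.86 in Ezh2+/+ tumours, which did not overlap but are all dim. The log2 fold change was −0.34 (SE 0.10, limma adjusted p = 0.0375), kept in 2 of 10 fits without a tumour (those without Ezh2-/- replicate 5 and Ezh2+/+ replicate 2) and lost in the other 8 (adjusted p from 0.0545 to 0.0843) and after quantile normalization (0.277).

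The other 7 members at these loci did not pass. Peg13, a noncoding RNA, was at 4.92 to 5.97 against 3.61 to 5.52, with a log2 fold change of 0.82 (SE 0.29, limma adjusted p = 0.0742), and passed without Ezh2+/+ replicate 2 at 1.06 (adjusted p = 0.0197). It also passed by the methods' own test at its thresholds (unadjusted p = 0.0479). Nnat, a small membrane protein gene of neuroendocrine tissue, was at 5.50 to 6.39 against 5.31 to 5.85, with 0.45 (adjusted p = 0.0810, and 0.0335 without Ezh2-/- replicate 2), and its second probe set had 0.52 (adjusted p = 0.117). Impact, a regulator of translation, had 0.34 (SE 0.15). Mest, a growth-related gene of the mesoderm, had 0.22 with a wide confidence interval, −0.63 to 1.06, and its values ran from 5.41 to 7.72 in Ezh2-/- tumours. Gnas, the gene of the stimulatory G protein, had 0.15, the nucleosome assembly gene Nap1l5 had 0.07 and the zinc finger gene Zdbf2 had 0.01, with confidence intervals between −0.26 and 0.40. The Gnas probe set was dim, at 4.44 to 4.75 against 4.32 to 4.52, and which Gnas transcripts it reads was not tested. A probe set annotated to Gnas and Gnasas1 had −0.05 and did not pass.

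Promoter windows were looked up for all members, since methylated control regions with CpG-rich sequence mark imprinted domains, and 8 of the 9 genes that passed had one (Sgce had none). The windows of Plagl1 and Dio3, both from 250 bases before to 50 after the start on GRCm38.p6 in RefSeq (chr10:13090582-13090881 and chr12:110278980-110279279, plus strand), are shown as CpG-rich starts of genes that rose, with CpG dinucleotides in capitals.
Plagl1: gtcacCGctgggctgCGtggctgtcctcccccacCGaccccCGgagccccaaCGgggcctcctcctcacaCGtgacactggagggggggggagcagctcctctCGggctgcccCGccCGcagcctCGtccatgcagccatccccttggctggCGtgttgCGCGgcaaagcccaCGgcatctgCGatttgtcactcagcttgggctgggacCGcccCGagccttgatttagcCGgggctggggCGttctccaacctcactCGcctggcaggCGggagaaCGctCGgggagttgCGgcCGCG
Dio3: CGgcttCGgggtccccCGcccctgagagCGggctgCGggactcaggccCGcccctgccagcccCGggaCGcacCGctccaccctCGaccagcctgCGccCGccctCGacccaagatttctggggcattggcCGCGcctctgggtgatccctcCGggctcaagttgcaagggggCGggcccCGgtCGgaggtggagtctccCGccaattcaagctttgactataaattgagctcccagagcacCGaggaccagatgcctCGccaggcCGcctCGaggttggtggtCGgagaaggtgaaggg
They hold 26 and 25 CpG dinucleotides, against a median of 7 over all 32851 windows in the table, and the window of Rian, which also rose, holds 0. Among genes that fell, Rasgrf1 has 26, and Calcr has 29 in 1 of its windows and 4 in the other. The motif TGCCGC, the core that the mouse imprint factor ZFP57 recognises when methylated, was searched on both strands, so that its reverse complement GCGGCA counts too. It was in 11.6% of all windows (3813 of 32851) and in 24% of the 50 windows of the members, which overlap in part, or in 10 of 29 measured members with a window. For that count of members, which can have several windows each, no share over all genes was computed. The motif itself holds a CpG, and the windows compared were not matched for CpG content. Of the genes that passed, Plagl1, Grb10 and Calcr held it. The match is to letters only, and methylation was not measured on these arrays.

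Other imprinted genes that are not on the list of 39 were described for comparison. Of 35 such genes with a value, from a list of 40, the test called 6 higher and 1 lower and 28 did not pass, with a median log2 fold change of 0.05, where 7.29% of all genes were higher and 7.56% lower. The count higher was 2 without Ezh2-/- replicate 2, 3 or 4 or Ezh2+/+ replicate 5 and 3 without Ezh2+/+ replicate 3. Median centring gave 11, where 23.5% of all genes were higher, and adjusting the methods' own test gave 2, where 3.89% were. Smoc1, which encodes a secreted matrix protein that binds calcium, was the clearest, at 7.81 to 8.56 in Ezh2-/- and 5.94 to 7.86 in Ezh2+/+ tumours, and its log2 fold change of 1.59 (SE 0.29, limma adjusted p = 0.00586) passed in every setting run. Tssc4, a gene of the Kcnq1 domain, was higher by 0.42 (adjusted p = 0.0232) but not after quantile normalization (0.0574) or cyclic loess (0.0805), or without Ezh2-/- replicate 3 or Ezh2+/+ replicate 3 or 5. Trappc9, the trafficking gene whose introns hold Peg13, was higher by 0.63 (adjusted p = 0.0249), and lost its call without Ezh2-/- replicate 2, 3 or 4 or Ezh2+/+ replicate 5. Th, the tyrosine hydroxylase gene, was the one that was lower, by −0.46 (adjusted p = 0.0255), and did not pass after quantile normalization (0.125), median centring (0.0740) or cyclic loess (0.0975), or without Ezh2-/- replicate 1, 3 or 4 or Ezh2+/+ replicate 4 or 5.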

How the data were processed

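Total RNA of 10 tumours was profiled with 1 Affymetrix Mouse Gene 2.0 ST array each. The deposited values are gene-level normalized signals that the authors made in Affymetrix Expression Console and tested in Transcriptome Analysis Console. The algorithm and the log base are not given in the sources used here, and the deposited values, from 0.595 to 13.2, were taken as log2. Every deposited sample column was used. Genes were assigned with the array's annotation, in which 23521 of the 41345 probe sets carried a single symbol, 1820 several and 16004 were not listed. RefSeq held 23328 of the single-symbol probe sets. They gave 22180 genes, and for the 1082 genes with several, the probe set brightest on average was taken. Dim genes were not filtered.

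Genotypes were compared with limma 3.58.1 in R 4.3.3, and the two-sided p-values were corrected over the 22180 genes as by Benjamini and Hochberg. Probe sets shared by several genes were tested in a fit over 25341 annotated probe sets. Tests were checked on simulated data. Alternatives were the methods' own test (with adjustment, and at an unadjusted p of 0.05 with a fold of 1.5), array weights, a robust prior with an intensity trend, median centring, quantile normalization, dropping the dimmest 40% of genes, averaging the probe sets of a gene, admitting shared probe sets, a block for the replicate number, Ezh2-/- replicates 1 and 5 left out, and each tumour left out in turn. Cyclic loess was chosen after seeing the data.

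The members and the lists (2 of related genes and 7 of cell types) were chosen with earlier results of these data known. All 39 members are named, with every tumour's value for those that passed and for the largest difference of each domain. Of each list of related genes, up to 4 genes that passed are named, and the cell type lists are given as counts and mean signals only. Igf2 and Igf2r were named for their place beside members, outside this rule and after their values were seen. Domain and active parental copy were assigned from general knowledge. Promoter windows are from RefSeq on GRCm38.p6 and covered 32 of the 39 members. No other positions are given because the build behind the array is not given in the sources used here. Plots were made in Python 3.11.15 with matplotlib 3.10.9.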

Additional observations from a re-analysis of the deposited data

Results flagged for a closer look

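In 6 of 68 groups of 5 tumours, each an imprinted gene in 1 genotype, 1 tumour stood far from the other 4 by Dixon's ratio. Chance alone flags about 1 in 20 groups. Sgce in Ezh2+/+ replicate 2 was at 6.65, with the other Ezh2+/+ tumours at 4.17 to 4.84. Slc22a18 in the same tumour was at 6.06, with the others at 5.26 to 5.42. Kcnq1ot1 in Ezh2-/- replicate 3 was at 5.06, above the 4.61 to 4.74 of the others. The remaining values were all high in Ezh2-/- replicate 5, where Phlda2 was at 4.95 (others 4.63 to 4.72), Nap1l5 at 5.03 (others 4.63 to 4.74) and Rasgrf1 at 3.40 (others 3.25 to 3.29).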

How the results depend on the processing

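With 6 imprinted genes higher and 3 lower as reported, the count higher was 4 to 8 without single tumours and the count lower 0 to 3. It was 0 lower without Ezh2-/- replicate 4 or Ezh2+/+ replicate 3, and 1 without Ezh2+/+ replicate 1, 4 or 5. After median centring 11 were higher and 0 lower, where 23.5% of all genes were higher and 4.18% lower. Without single tumours, 3.37% to 11.4% of all genes were higher and 4.43% to 8.66% lower. The count lower was also 0 under cyclic loess, which was added with the data in view, with quantile normalization, at the methods' own thresholds and without the dimmest genes, where the 3 genes that fell were not tested. Rian and Ndn passed in all settings, and Dio3 in all but the methods' thresholds, which ask for a larger fold, and the setting without the dimmest genes, where it was not tested either. Grb10 and Sgce lost their calls under the methods' own test with adjustment (adjusted p = 0.100 and 0.0727). The labels do not say whether the replicate numbers pair the tumours. Deviations of same-numbered tumours correlated at −0.04 to 0.34, and 2 of 5 Ezh2-/- tumours were closest to their own number. Such correlations cannot settle whether the tumours were paired. With the replicate number as a block 8 members were higher and 4 lower, with Asb4, Peg13 and Ppp1r9a added. The block called 11.5% of all genes higher and 8.54% lower.

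Values of members that changed sign had not passed. Quantile normalization gave Kcnq1ot1 0.13, Dlk1 0.0035, Usp29 0.056, Mkrn3 0.183 and Peg10 −0.075. Median centring gave Kcnq1ot1 0.164, Slc22a18 0.090, Dlk1 0.051, Usp29 0.080 and Mkrn3 0.172, and cyclic loess Kcnq1ot1 0.087, Usp29 0.053, Mkrn3 0.183 and Peg10 −0.100. Kcnq1ot1 was 0.0015 with array weights, and without Ezh2-/- replicates 1 and 5 it was 0.011 and Slc22a18 0.108. Meg3 was 0.533 where its shared probe set was admitted. Without single tumours Kcnq1ot1 ranged from −0.121 to 0.083, Slc22a18 from −0.18 to 0.063, Phlda2 from −0.023 to 0.17, Usp29 from −0.205 to 0.093, Mkrn3 from −0.083 to 0.078, Peg10 from −0.076 to 0.085, Mest from −0.116 to 0.461, Nap1l5 from −0.026 to 0.172 and Zdbf2 from −0.023 to 0.083. The causes were not tested. Of the other values of genes and probe sets under alternatives, 115 lost a call, 18 gained one and 800 did neither.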

Other observations

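Genes that set or keep imprints were measured too. Of 24 such genes, of 25 listed, 1 was higher and 0 lower in Ezh2-/- tumours by limma, with 5 under an unadjusted p of 0.05, 2 of them lower, and a median log2 fold change of 0.28. The methods' own test with adjustment called 0 in either direction. The one that passed was Rb1, the retinoblastoma gene, at 1.16 (standard error 0.26, adjusted p = 0.0143 from limma), and it did not pass under the methods' own test with adjustment (0.0553). The count higher depended on Ezh2-/- replicate 5, which was low for many of these genes. It was 9 without that tumour, and 10 higher and 1 lower without Ezh2-/- replicates 1 and 5 together. Calls rose over all genes too, from 7.29% higher with all tumours to 11.4% without replicate 5 and 10.6% without both.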
